A study of Mus musculus with 8 samples.

Results

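The ETS transcription factors of the epidermis and its surrounding tissue were compared between dorsal skin of mouse embryos that lacked the glucocorticoid receptor (GR, encoded by Nr3c1) and skin of their wild-type littermates. They comprised 8 genes, Elf5, Ehf, Elf3, Elf1, Ets1, Ets2, Etv4 and Etv5. Every probe set that the platform annotation assigns to 1 of these symbols alone was taken, which gave 21 of 45037 probe sets and 8 of 18194 genes. A gene's main value came from its brightest probe set, by the mean of all 8 arrays. The set was chosen by family membership with earlier log2 fold changes of these arrays known, in which Elf5 and Ehf already differed. The values of those 2 genes are therefore a description and no independent evidence.

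The study hybridised total RNA of dorsal skin from B6D2/F1 embryos at embryonic day 18.5 to Affymetrix mouse expression arrays. The wild-type group (GR+/+) held 4 arrays, which the labels number 4, 6, 28 and 29. The GR-null group (GR-/-) held 4 arrays, numbered 5, 17, 25 and 26. The embryos were littermates delivered by caesarean section, and no treatment is given in the labels. The genotype is that of the embryo and not of the skin alone, and the sources used here do not say how the null allele was made. Nothing in the labels ties each array to an embryo of its own, so the p-values measure the spread between these samples. Values are log2 expression, and a difference is GR-null minus wild-type.

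ETS factors share a DNA-binding domain, the ETS domain, which contacts the core letters GGAA. Elf5, Ehf and Elf3 form the branch of the family that is found mainly in epithelia. Elf5 is known for luminal differentiation in the mammary gland and for the trophoblast lineage, while Ehf and Elf3 are known from differentiating epithelia, the epidermis among them. Elf1 and Ets1 are best known from lymphoid cells and vessels, Ets2 responds to mitogen-activated kinases, and Etv4 and Etv5 are transcribed in response to fibroblast growth factor (FGF) signalling.

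Across all probe sets, Pearson correlations between arrays lay between 0.974 and 0.994. Nr3c1, the disrupted gene, was lower in GR-null skin at 3 of its 6 probe sets. At the brightest it fell by 0.84 ± 0.11 log2 (SE, n = 4 per group, limma adjusted p over probe sets = 0.0133), and at the others that passed the differences were -1.86 and -2.70. The other 3 had differences of 0.27, 0.04 and 0.35 and did not pass, and which of the 6 lie in the disrupted sequence was not examined. GR-null 17 stood apart from the other GR-null arrays. The Y-linked Eif2s3y read 3.31 log2 there and 3.43 in wild-type 6, against 8.83 to 9.51 in the other 6 arrays, a signal that marks male tissue. Its mean over 9 inner root sheath genes of the hair follicle was 8.90 log2, against 5.63 to 6.38 in the other GR-null arrays and 5.79 to 5.99 in wild-type arrays. Its mean over 21 skeletal muscle markers was 12.08, against 11.28 to 11.59 in the other GR-null arrays and 12.11 to 12.23 in wild-type arrays. Keratinocyte markers read in all arrays, with a mean over 8 genes of 12.04 to 12.47 in wild-type and 12.22 to 12.42 in GR-null arrays. Of these 8, Trp63, the transcription factor of basal keratinocytes, rose by 0.60 (adjusted p over all genes = 0.0372) and the other 7 did not pass.

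Of the 8 ETS genes, Elf5 was higher and Ehf lower in GR-null skin, and the other 6 did not pass the threshold, an adjusted p below 0.05 over all genes. Elf5 was higher by 3.33 and Ehf fell by 1.13 on the log2 scale. Neither wild-type Elf5 nor Ehf of either group was shown to be above background, so no fold is given. Over all genes 2.96% passed, 1.40% higher and 1.56% lower. Without GR-null 17 a further gene, Elf3, passed with a higher level, making 3 of 8, while the calls over all genes went from 539 to 1640. Without wild-type 4, 28 or 29, or GR-null 5 or 25, the count was 1, Elf5, and the calls over all genes numbered 79 to 295. The groups did not overlap in 3 of the 8 genes, Elf5, Ehf and Elf1, against 13.0% of all genes. Of these, Elf5 and Elf1 were higher (6.69% of all genes) and Ehf was lower (6.30%).

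**Figure D1:**
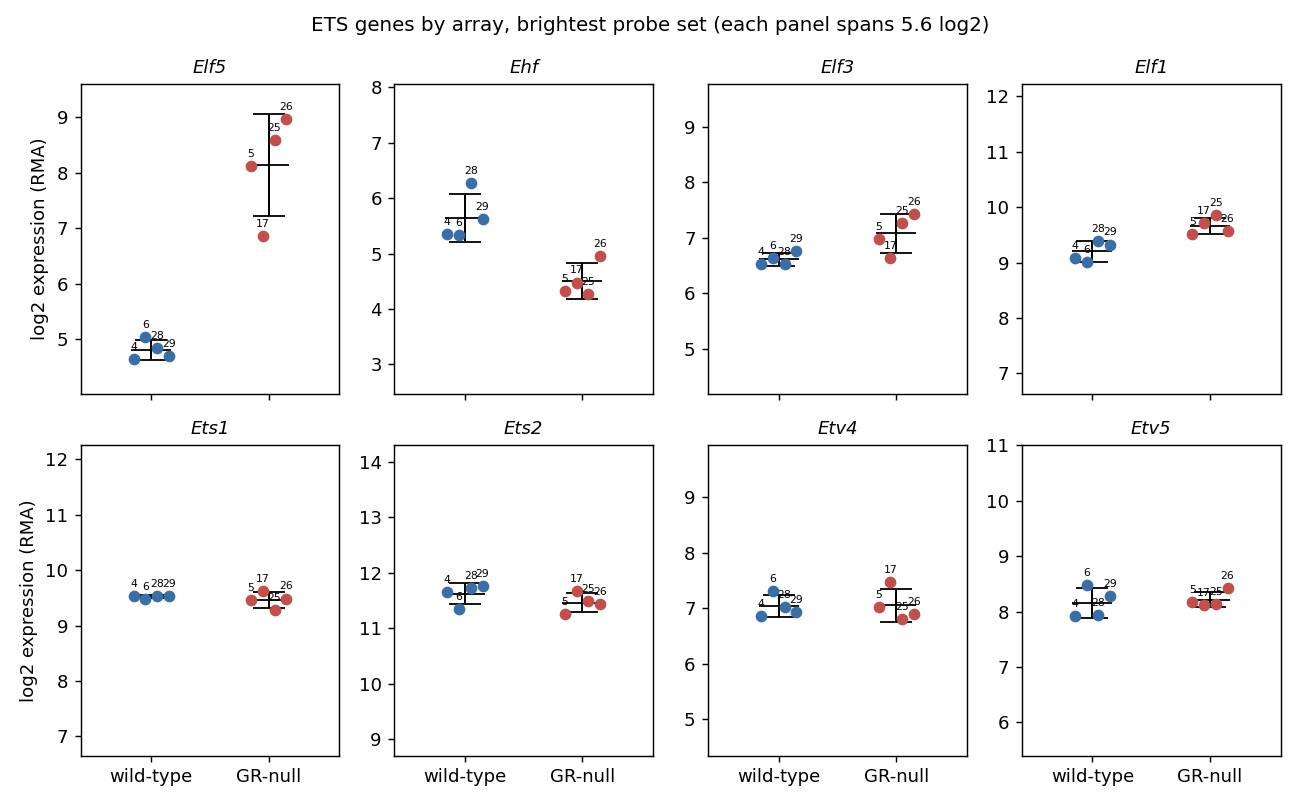
Log2 expression of the 8 ETS genes at their brightest probe sets, with 1 point per array (small numbers are array labels), the group mean as a horizontal bar and 1 SD as whiskers (n = 4 per group). Elf5 lies between 4.64 and 5.03 in wild-type and between 6.86 and 8.97 in GR-null arrays, while Ets1, Ets2, Etv4 and Etv5 overlap.

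For Elf5, wild-type 4, 6, 28 and 29 gave log2 values of 4.64, 5.03, 4.83 and 4.70. The values of GR-null 5, 17, 25 and 26 were 8.12, 6.86, 8.59 and 8.97. All 4 GR-null arrays were above all wild-type arrays, and GR-null 17 was the lowest of them. The group means were 4.80 ± 0.17 (SD, n = 4) and 8.14 ± 0.92. The wild-type mean was at the 25.7th percentile of all probe sets and the GR-null mean at the 71.8th, so the gene was among the dim transcripts of wild-type skin. Elf5 was higher by 3.33 ± 0.38 log2 (SE, 95% interval 2.47 to 4.20, limma adjusted p over all genes = 0.00617). No detection calls were used, and the scale compresses differences at levels as low as the wild-type ones.

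The second Elf5 probe set was dimmer in GR-null skin and differed by less. Its wild-type values were 4.86, 4.53, 4.85 and 5.06, and its GR-null values 6.63, 5.19, 6.23 and 8.08, in the same order of arrays. The groups did not overlap, but GR-null 17 was only slightly above wild-type 29. The difference was 1.71 ± 0.50 log2 (SE), with an adjusted p over all probe sets of 0.0871. Averaged over both probe sets, Elf5 was higher by 2.52 log2 (adjusted p = 0.0174).

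Skeletal muscle markers differed between the genotypes in the other direction from Elf5. All 21 skeletal muscle markers had a negative difference, and 6 of them fell past the threshold. Among GR-null arrays, GR-null 17 had the highest muscle mean and the lowest Elf5, at both probe sets. Of the other GR-null arrays, GR-null 5 had the lowest muscle mean (11.28) and also the lowest Elf5 at the brighter probe set (8.12). Among wild-type arrays, Elf5 at that probe set was highest in wild-type 6 (5.03), whose muscle mean of 12.20 was above those of wild-type 4 and 28. Both orders differed at the second Elf5 probe set. There GR-null 25 (6.23) was below GR-null 5 (6.63), and wild-type 6 was the lowest wild-type array (4.53). The muscle mean of each GR-null array (12.08 or less) lay below that of each wild-type array (12.11 or more). As a covariate it therefore overlaps with genotype. With it as a covariate Elf5 was higher by 2.24 log2 (adjusted p = 0.15), while calls over all genes went from 539 to 24. Without GR-null 17 the difference was 3.76 (adjusted p = 0.000109), and over the 8 fits that each left out 1 array it lay between 3.06 and 3.76 with the call kept in all 8. In these bulk samples, fewer cells of a type and less RNA per cell cannot be told apart, and the part of muscle in the Elf5 result was not tested beyond this covariate.

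**Figure D2:**
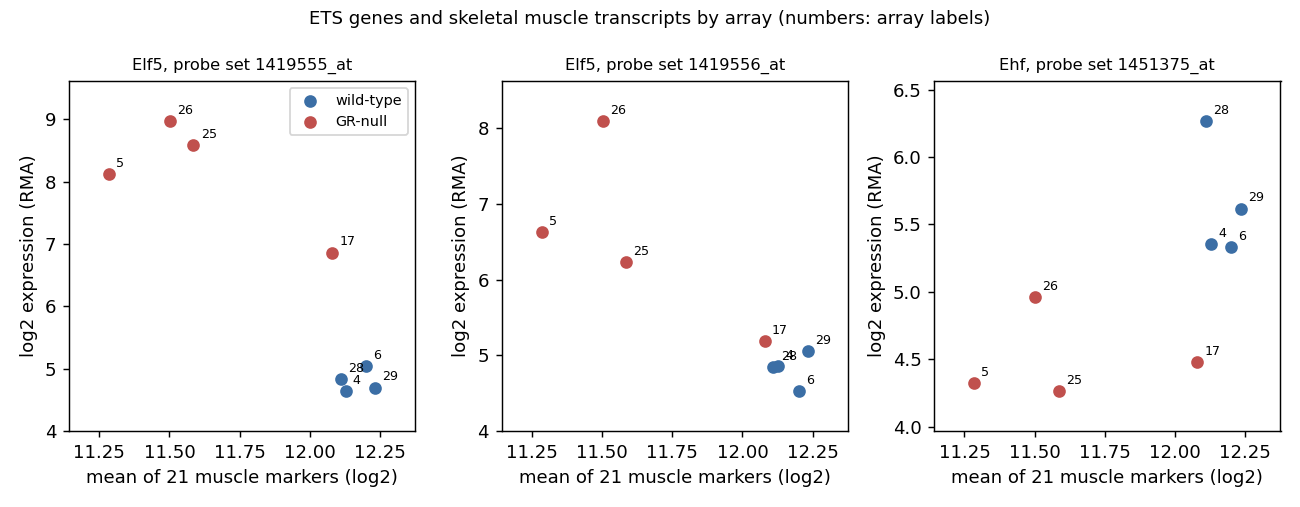
Log2 expression of Elf5 at its 2 probe sets and of Ehf at its brightest (vertical) against the mean of 21 skeletal muscle markers (horizontal, log2), with 1 labelled point per array. GR-null 17 lies beside the wild-type arrays in muscle level (12.08), above them in Elf5 (6.86 at the brighter probe set) and below them in Ehf (4.48).

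RefSeq (build GRCm38.p6) gives 2 start sites for Elf5, and the 250 bases before each are shown because Elf5 carried the largest difference among the 8 genes. Capitals mark the ETS core GGAA or its reverse complement TTCC.
Elf5, first start, chr2:103411848-103412097, plus strand: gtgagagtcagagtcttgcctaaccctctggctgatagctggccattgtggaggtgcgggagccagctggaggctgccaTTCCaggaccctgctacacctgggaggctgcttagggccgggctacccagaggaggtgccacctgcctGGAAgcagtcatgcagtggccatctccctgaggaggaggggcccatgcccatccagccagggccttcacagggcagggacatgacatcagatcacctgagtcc
Elf5, second start, chr2:103423818-103424067, plus strand: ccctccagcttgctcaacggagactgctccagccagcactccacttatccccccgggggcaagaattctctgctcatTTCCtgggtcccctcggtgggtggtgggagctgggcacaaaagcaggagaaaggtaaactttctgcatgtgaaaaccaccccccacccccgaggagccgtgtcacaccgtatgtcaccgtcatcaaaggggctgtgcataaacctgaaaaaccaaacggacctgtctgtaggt
The first window held 2 ETS cores, beginning 171 and 103 bases before the start, and the second held 1, beginning 173 bases before it. A core of 4 letters is common: 93.4% of 32851 promoter windows of the same length held at least 1 on either strand. The half-site bound by the glucocorticoid receptor, searched as AGAACA on both strands, was in neither window, and 16.1% of all windows held it. The full palindrome, AGAACA and its reverse complement TGTTCT with 3 letters between them, was in neither window either, and 0.00913% of all windows held it. Windows were found for 5 of the 8 ETS genes, and none of their 8 windows held the half-site. Such a search describes the letters of these windows and says nothing of binding elsewhere.

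Ehf, the epithelial factor next to Elf5 on chromosome 2, went the other way. Its log2 values were 5.35, 5.33, 6.26 and 5.62 for wild-type 4, 6, 28 and 29. They were 4.32, 4.48, 4.27 and 4.96 for GR-null 5, 17, 25 and 26. The groups did not overlap, wild-type 28 was the highest array, and GR-null 26 was the nearest to the wild-type values. Ehf fell by 1.13 ± 0.23 log2 (SE, 95% interval -1.65 to -0.62, limma adjusted p over all genes = 0.0375). The next probe set had wild-type values of 5.24, 5.03, 6.28 and 5.32 and GR-null values of 4.40, 4.80, 4.14 and 4.44, again without overlap, with a difference of -1.02 ± 0.26 (adjusted p over probe sets = 0.0607). The remaining probe sets were dimmer and overlapped between the groups, with differences of -0.03 and -0.29. The GR-null means of all 4 Ehf probe sets were at or below the 20.6th percentile of all probe sets. Their wild-type means were at or below the 38.4th.

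The Ehf call was kept in 3 of the 8 fits that each left out 1 array. Over all genes, fewer calls than the 539 with all arrays were made in each fit that lost it. Fewer were also made without wild-type 6 (321) or GR-null 26 (154), where it was kept. The Ehf call was lost when wild-type 4 (adjusted p = 0.0554), 28 (0.0633) or 29 (0.1) was left out. It was also lost without GR-null 5 (0.094) or 25 (0.123), while the difference stayed between -1.29 and -0.93. GR-null 17 was at the level of the other GR-null arrays, and without it Ehf fell by 1.12 log2 (adjusted p = 0.0336). With the muscle covariate the difference was -1.19 (adjusted p = 0.36). The standard error was 0.40 with that covariate, against 0.23 without it. The muscle mean overlaps with genotype, and the part of muscle in the Ehf result was not tested beyond this covariate.

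Elf3, the epithelial relative of Ehf, had 1 probe set. The wild-type log2 values were 6.52, 6.63, 6.52 and 6.76, and the GR-null ones 6.98, 6.63, 7.27 and 7.43. Of the GR-null arrays, 3 were above all wild-type arrays and GR-null 17 was within their range. The difference was 0.47 ± 0.16 (SE, 95% interval 0.11 to 0.84, adjusted p over all genes = 0.139). Without GR-null 17 it was 0.62 (adjusted p = 0.0206), and with the muscle covariate 0.15 (adjusted p = 0.888). GR-null 17 was thus the lowest GR-null array for both Elf3 and Elf5.

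At the brighter probe set of Elf1 the wild-type log2 values were 9.08, 9.0, 9.39 and 9.32, and the GR-null ones 9.52, 9.70, 9.85 and 9.57. Each GR-null array was above each wild-type array. The difference of 0.46 ± 0.11 (SE, 95% interval 0.20 to 0.72) missed the threshold over all genes (adjusted p = 0.065), and the adjusted p lay between 0.068 and 0.178 when 1 array was left out. The other Elf1 probe set overlapped, with a difference of 0.04 ± 0.18. Marker lists of the cells best known for Elf1 and Ets1 were measured beside them. Over all 18194 genes, limma gave 1909 higher and 2027 lower at an unadjusted p below 0.05. Of 9 endothelial markers 0 passed the threshold, with 0 higher and 3 lower at that unadjusted level. Their mean was 8.39 to 8.90 in wild-type and 8.51 to 8.58 in GR-null arrays. Of 8 leukocyte markers 1 fell, the adaptor gene Lcp2, which fell by 1.0 ± 0.20 log2 (adjusted p = 0.037), and the mean of the list was 7.64 to 8.09 in wild-type and 7.57 to 7.71 in GR-null arrays. At an unadjusted p below 0.05 there were 3 lower and 1 higher, Itgam, with a difference of 0.38 (adjusted p = 0.0977). Differences were positive in 5 of the 8 leukocyte markers and negative in 3, with a median of 0.078. The lysosomal gene Laptm5 and the T-cell receptor component Cd3e did not overlap between the groups, with differences of -0.94 (adjusted p = 0.0655) and -0.36 (adjusted p = 0.138). The Lcp2 call was kept without wild-type 4 or GR-null 17 and lost without any other single array, with an adjusted p of up to 0.106. The part of these cells in the Elf1 values was not tested.

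Ets1 and Ets2 were bright and close between the genotypes. The brightest probe set of Ets1 had wild-type log2 values of 9.53, 9.49, 9.54 and 9.53 and GR-null values of 9.46, 9.62, 9.28 and 9.49. The difference was -0.06 (95% interval -0.25 to 0.13, adjusted p = 0.761). Probe sets of Ets1 disagreed: the third by brightness had wild-type values of 8.50, 8.18, 7.47 and 8.31 and GR-null values of 7.03, 8.23, 7.20 and 6.53, with a difference of -0.87 ± 0.35 (adjusted p over probe sets = 0.187). There GR-null 17 read as the wild-type arrays did, and wild-type 28 lay nearer to the GR-null values. Ets2 had wild-type values of 11.66, 11.35, 11.72 and 11.76 and GR-null values of 11.25, 11.67, 11.49 and 11.44, a difference of -0.16 (95% interval -0.43 to 0.11, adjusted p = 0.505). All 3 Ets2 probe sets had a negative difference, and at the dimmest the groups did not overlap (-0.30 ± 0.11, adjusted p over probe sets = 0.15).

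Etv4 and Etv5, the pair transcribed downstream of FGF receptors, overlapped between the genotypes. Etv4 had wild-type log2 values of 6.86, 7.31, 7.03 and 6.94 and GR-null values of 7.03, 7.47, 6.81 and 6.90. Its difference was 0.02 (95% interval -0.34 to 0.37, adjusted p = 0.97). Etv5 had wild-type values of 7.92, 8.49, 7.94 and 8.28 and GR-null values of 8.18, 8.12, 8.13 and 8.42, with a difference of 0.06 (95% interval -0.26 to 0.37, adjusted p = 0.871). For Etv4 and Etv5 the arrays of 1 group spread more widely than the group means differed. Their intervals at these probe sets reached from -0.34 at the lowest to 0.37 at the highest, and as a mean over its probe sets Etv4 had a difference of -0.12.

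**Figure D3:**
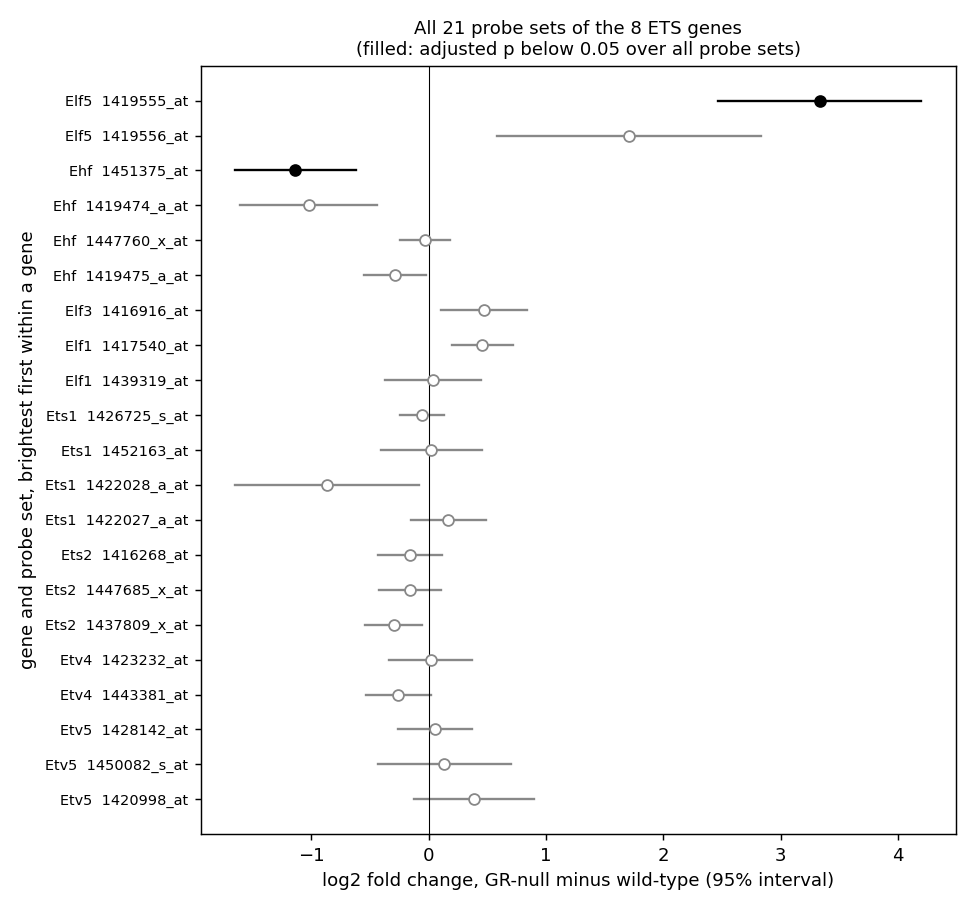
Log2 fold change, GR-null minus wild-type, of all 21 probe sets of the 8 ETS genes (horizontal, points with 95% intervals), filled where the adjusted p over all probe sets is below 0.05. The filled points are 1 probe set of Elf5 at 3.33 and 1 of Ehf at -1.13.

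By probe set, 1 of the 21 was higher and 1 lower, against 2.22% and 1.63% of all probe sets (3.85% together), and 19 did not pass. The groups did not overlap in 6 of the 21, against 12.6% of all probe sets. Higher were both probe sets of Elf5 and 1 of Elf1 (6.80% of all), and lower were 2 of Ehf and 1 of Ets2 (5.82% of all). Differences were positive in 11 probe sets and negative in 10. Without GR-null 17 the calls numbered 6, 3 in each direction, while calls over all genes went from 539 to 1640. Without wild-type 28 or 29, or GR-null 5, 25 or 26, there was 1, with 79 to 186 calls over all genes. Calls over all probe sets were not counted for these fits.

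Elf5 and Ehf are neighbours on chromosome 2 by the RefSeq gene order, with 2 long non-coding genes between them. The genes around the pair were read to see whether the opposite differences extended along the chromosome. On the side of Ehf, Slc1a2, Cd44, Pdhx and Apip had log2 fold changes of -0.21, -0.03, 0.08 and 0.14. Apip, a gene of methionine salvage, did not overlap between the groups. On the side of Elf5, the catalase gene Cat, Abtb2, Nat10 and Caprin1 had differences of -0.20, -0.12, -0.27 and -0.13. BC016548, the non-coding gene between the pair that had a probe set of its own and was named after its value was seen, differed by 0.01 (95% interval -0.17 to 0.18). Limma called 0 of the 8 neighbours. At an unadjusted p below 0.05 it gave Nat10 as lower, against 2027 lower of all 18194 genes. Cd44 and Caprin1 had differences of 0.33 and 0.44 as means over all their probe sets, so the sign of both depended on the probe set read.

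**Figure D4:**
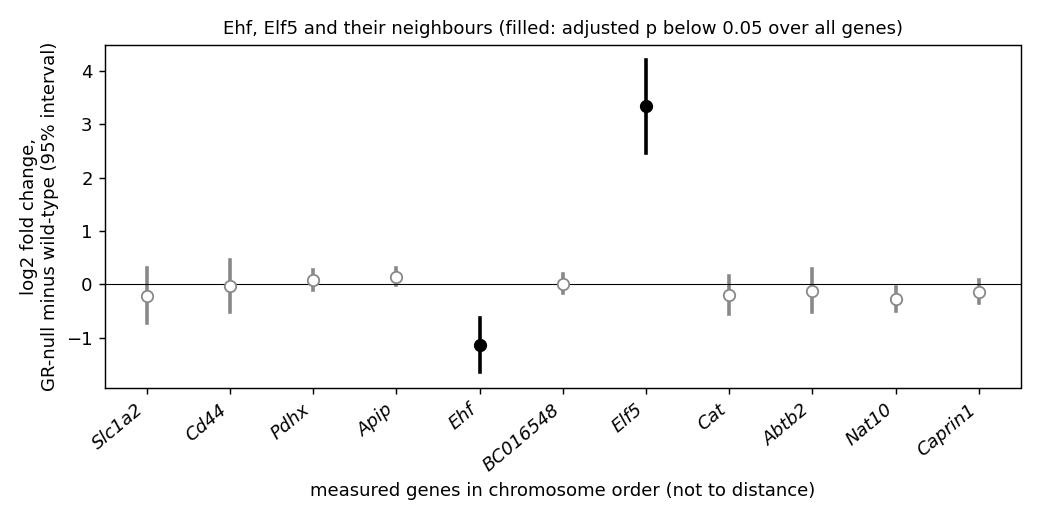
Log2 fold change, GR-null minus wild-type, of Ehf, Elf5 and the measured genes around them in chromosome order (points with 95% intervals), filled where the adjusted p over all genes is below 0.05. Ehf at -1.13 and Elf5 at 3.33 are filled, and the others lie between -0.27 and 0.14.

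The genes with the array profile closest to Elf5 were found by the root mean square difference of log2 values over the 8 arrays, after each gene was centred on its mean. They were the type II keratin gene Krt77 (0.70), the growth factor gene Fgf1 (0.75), 2310079G19Rik (0.78) and the fatty acyl-CoA reductase gene Far2 (0.78). Krt77 and Fgf1 were higher in GR-null skin past the threshold, by 4.52 and 1.96 log2 (adjusted p of 0.00171 and 0.0183). 2310079G19Rik and Far2 had differences of 2.22 and 2.48 and did not pass (adjusted p of 0.0991 and 0.113), and without GR-null 17 they did (8.07e-05 and 0.00337). All 4 were lowest among GR-null arrays in GR-null 17. Likeness to Elf5 over these arrays chose the genes, so this pattern and their higher level in GR-null skin follow from the choice. Their adjusted p-values are a description and no independent evidence. The Fgf1 call was lost when wild-type 28 (0.0552) or 29 (0.0649) was left out, and when GR-null 5 (0.0582), 25 (0.0648) or 26 (0.0592) was.

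For Ehf the closest profiles were those of the atrial myosin light chain gene Myl7 (0.19), the ERK phosphatase gene Dusp5 (0.22), the polo-like kinase gene Plk3 (0.22) and Fam3b (0.22). Myl7 fell by 1.16 and Plk3 by 1.29 log2 (adjusted p of 0.0158 and 0.00547), while Dusp5 and Fam3b had differences of -0.92 and -0.88 (adjusted p of 0.0624 and 0.0677). Since likeness to Ehf chose these genes, their direction and the lack of overlap between their groups follow from the choice. Plk3 kept its call without any single array, Myl7 lost it without wild-type 29 (0.0561) or GR-null 25 (0.0601), and Dusp5 gained it without wild-type 6 (0.0303).

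The remaining ETS family was read from a list of 18 genes, of which 16 were measured. Limma called 0 of them, and at an unadjusted p below 0.05 it gave 0 higher and 2 lower, against 1909 and 2027 of 18194 genes. The differences ran from -0.33 to 0.24, with a median of -0.014 against -0.0045 over all genes. The smallest p-values belonged to the repressors Etv6 (-0.33 ± 0.11 log2, adjusted p = 0.141) and Erf (-0.24 ± 0.09, adjusted p = 0.145). Spdef and Spib, further members with an epithelial or lymphoid role, had differences of -0.02 and 0.22.

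A list of 23 genes of late epidermal differentiation was compiled for known ETS control, which was not examined here for each gene. Of the 17 measured, 5 fell, 0 rose and 12 did not pass, against 1.56% lower and 1.40% higher over all genes. Differences were negative in 13 and positive in 4, with a median of -0.27 against -0.0045 over all genes. Earlier results of these arrays had already shown several of the falls, so the list is no independent evidence of its direction. The cornified envelope precursors Sprr1b, Sprr2d and Sprr2h fell by 4.42 ± 0.49, 3.34 ± 0.23 and 2.90 ± 0.34 log2 (SE, adjusted p of 0.00547, 0.000663 and 0.00724). Filaggrin (Flg), which bundles keratin filaments, fell by 2.35 ± 0.45 (adjusted p = 0.0339). Loricrin (Lor), the main envelope protein, named after its values were seen, fell by 0.48 ± 0.10 (adjusted p = 0.0379), and with cross-hybridising kinds of probe set left out it had a difference of -0.24 (adjusted p = 0.239). Not all family members passed: Sprr1a and Sprr3 had differences of 1.37 and 1.03 (adjusted p of 0.413 and 0.514), and the transglutaminase Tgm3 one of -0.27. The count was 3 without wild-type 6, 28 or 29, or GR-null 5 or 25. Leaving out any single array kept the calls of the 3 Sprr genes, and with the muscle covariate the count was 2. Sprr2h was read at a probe set that can take up related transcripts, and it had no other probe set of its own symbol alone.

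**Figure D5:**
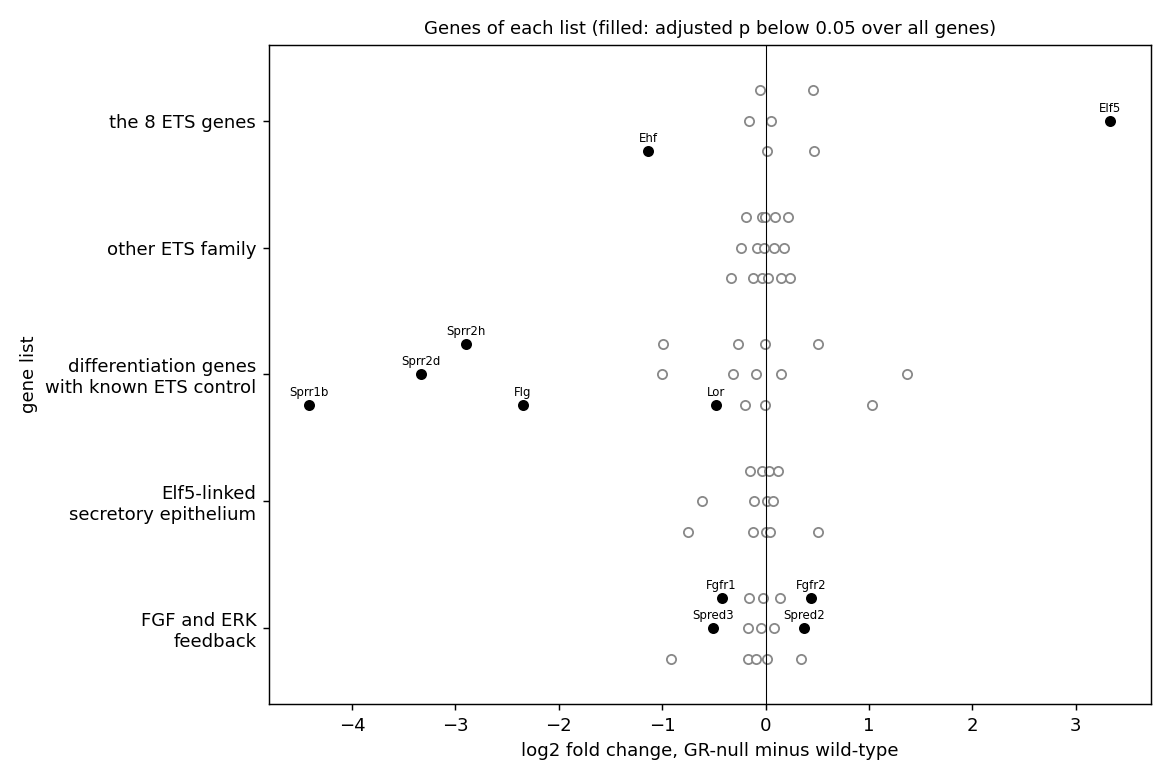
Log2 fold change, GR-null minus wild-type, of each measured gene in 5 lists (horizontal; vertical spread within a list only separates points), filled and named where the adjusted p over all genes is below 0.05. Falls of up to 4.42 are in the differentiation list, and the 16 other ETS genes lie between -0.33 and 0.24.

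The windows before the starts of the 3 Sprr genes that fell are shown because genes of this family are textbook targets of epithelial ETS factors. These 3 were chosen by their falls, so their shared direction follows from the choice. Windows of the measured Sprr genes that did not pass (Sprr1a, Sprr2f, Sprr2i, Sprr2k and Sprr3) are not shown for comparison. Capitals again mark GGAA or TTCC (RefSeq, GRCm38.p6).
Sprr2d, chr3:92338890-92339139, plus strand: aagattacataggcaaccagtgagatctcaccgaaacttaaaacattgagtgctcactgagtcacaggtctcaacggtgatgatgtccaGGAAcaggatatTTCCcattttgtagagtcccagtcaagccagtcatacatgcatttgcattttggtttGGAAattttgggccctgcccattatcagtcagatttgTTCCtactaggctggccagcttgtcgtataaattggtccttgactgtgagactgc
Sprr2h, chr3:92385435-92385684, plus strand: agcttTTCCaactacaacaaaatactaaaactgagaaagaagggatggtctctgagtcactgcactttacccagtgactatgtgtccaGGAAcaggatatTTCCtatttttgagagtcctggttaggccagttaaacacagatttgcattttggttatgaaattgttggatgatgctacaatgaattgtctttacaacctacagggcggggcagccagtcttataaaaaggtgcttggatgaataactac
Sprr1b, chr3:92438780-92439029, minus strand: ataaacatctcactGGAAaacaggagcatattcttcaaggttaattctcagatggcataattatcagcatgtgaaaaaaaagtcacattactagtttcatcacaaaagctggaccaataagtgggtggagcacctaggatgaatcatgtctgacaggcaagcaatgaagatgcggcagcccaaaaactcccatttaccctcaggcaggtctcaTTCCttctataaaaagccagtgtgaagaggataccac
Sprr2d held 4 ETS cores, Sprr2h 3 and Sprr1b 2, where 93.4% of all windows held at least 1. The number of cores per window was not counted over all windows. The longest run of letters shared by the Sprr2d and Sprr2h windows was 22 bases, tgtccaGGAAcaggatatTTCC, which holds 2 cores in opposite orientation. It begins 167 bases before the start of Sprr2d and 168 before that of Sprr2h. None of the 3 windows held AGAACA on either strand or the longer ETS core CGGAAG, which 13.6% of all windows held. These matches are descriptions and do not show that a factor binds there.

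Genes tied to Elf5 in secretory epithelium were read from a list of 14, of which 13 were measured. Limma called 0 of them, with 1 higher and 1 lower at an unadjusted p below 0.05, against 1909 and 2027 of 18194 genes. The median difference of the list was 0.00088. The casein genes Csn1s1, Csn2 and Csn3 read between 4.13 and 5.15 in all 8 arrays. Krt8, a keratin of simple epithelia, had a difference of -0.75 ± 0.23 (adjusted p = 0.104), and it passed, downward, without wild-type 4 (-0.97, adjusted p = 0.0338). Gata3, a transcription factor of luminal mammary cells and of the hair follicle, had a difference of 0.51 ± 0.19 (adjusted p = 0.162).

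FGF and ERK signalling lies upstream of Etv4 and Etv5. Of 15 measured genes of this signalling and its feedback, from a list of 16, 2 rose, 2 fell and 11 did not pass. Over all genes 2.96% were called, and the median of the list was -0.04. The list held the receptor genes Fgfr1, Fgfr2 and Fgfr3 beside feedback genes. The receptor gene Fgfr2 rose by 0.44 ± 0.10 log2 (adjusted p = 0.0468) and the ERK inhibitor gene Spred2 by 0.37 ± 0.08 (adjusted p = 0.0408). As a mean over its probe sets Spred2 had a difference of 0.086 (adjusted p = 0.553). Spred3 fell by 0.51 ± 0.10 (adjusted p = 0.0314) and Fgfr1 fell by 0.42 ± 0.09 (adjusted p = 0.0457). Without probe sets prone to cross-hybridisation Fgfr1 had a difference of 0.24 (adjusted p = 0.35) and Fgfr2 one of 1.36 (adjusted p = 0.0634), and neither passed. The count was 1 without wild-type 4 or 6 or GR-null 5, and 0 without wild-type 28 or 29 or GR-null 25 or 26. Dusp6 and Spry2, widely used readouts of FGF signalling, had differences of -0.04 and -0.17. Dusp5 and Spry1 had differences of -0.92 and 0.34 and did not pass (adjusted p of 0.0624 and 0.0683). The groups did not overlap for either, nor for 6 of the 15 genes in all, against 13.0% of all genes.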

How the data were processed

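Expression was measured on 8 single-colour Affymetrix arrays, on which several short probes form a probe set. The deposited values are log2 expression per probe set, made with RMA per the submitters' processing notes, which subtracts background, equalises the arrays' distributions and summarises probes. It compresses differences at low levels, and a shift of most transcripts could not be seen. The sources used here do not give its version. Of 45101 probe sets, 64 controls were left out. Of the remaining 45037, 34945 carried 1 gene symbol, 932 several and 9160 none. Of 18194 genes, 18032 were found in the RefSeq table (GRCm38.p6).

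Genotype was tested with limma 3.58.1 in R 4.3.3 (lmFit, eBayes, two-sided) on all probe sets, with Benjamini-Hochberg adjustment over genes or probe sets and a threshold of 0.05. The code was tested on simulated data. No batch labels were used here, and the number of arrays limits the precision.

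Members, gene lists and tests were chosen with earlier results of these data known. Named genes were the 8 members, up to 4 genes past the threshold per list (otherwise the 2 with the smallest p), 4 measured neighbours on each side of Ehf and Elf5, and the 4 closest profiles to each. Other genes named in the lists were chosen after their values were seen.

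Alternatives were a further quantile normalization, probe sets above the median level, a robust prior with a trend on intensity, each array left out, array quality weights, the muscle mean or the Y-linked Eif2s3y as a covariate, means over probe sets, and no _x_at or _s_at probe sets. For the neighbours' count these were added after seeing the data.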

Additional observations from a re-analysis of the deposited data

Results flagged for a closer look

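In 126 groups of 4 arrays, 8 values lay far from the other 3 of their group; chance gives about 1 in 20. None was at a probe set of the 8 ETS genes. GR-null 17 gave 4 of them: Krt77 at 12.52 log2 (others 13.87 to 14.04), 2310079G19Rik at 4.90 (7.90 to 8.25), Krt27 at 10.03 (5.91 to 6.11) and Caprin1 at 12.67 (12.29 to 12.35). Krt77 and 2310079G19Rik were among the genes closest to Elf5, and Krt27 is an inner root sheath keratin. Wild-type 28 stood out for Sprr2d at 9.76 (8.62 to 8.78), and was also the highest array for Ehf. Krt77 read 8.17 in wild-type 4 (9.26 to 9.47), Fgf1 5.23 in wild-type 29 (5.64 to 5.67) and Spred2 9.53 in GR-null 5 (9.72 to 9.75).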

How the results depend on the processing

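Elf5 and Ehf kept their direction in every alternative in which they were read; both lie below the median level, so with probe sets above it 0 of the 6 members read passed, and 1 of 11 probe sets. With array quality weights 4 members and 6 of their probe sets passed, and 1 Elf5-linked gene, while calls over all genes went from 539 to 1944. With the muscle covariate 0 members, 0 of their probe sets and 0 FGF genes passed, and 2 differentiation genes, with 24 calls over all genes; the cause was not tested. FGF genes numbered 2 with the robust trend and 2 with the Eif2s3y covariate. With 1 array left out, counts ran from 1 to 3 (members), 1 to 6 (their probe sets), 3 to 5 (differentiation), 0 to 1 (Elf5-linked), 0 to 4 (FGF), and 0 for other ETS genes and neighbours. Of 789 values of 50 named genes, 629 kept side and direction, 111 lost a call, 16 gained one and 33 changed sign. The sign changed with the muscle covariate for Ets1 (0.063), Ets2 (0.099), Cd44 (0.073), Cat (0.17), Abtb2 (0.14), Caprin1 (0.12), 2310079G19Rik (-0.19), Far2 (-0.13) and BC016548 (-0.10). It changed as a mean over probe sets for Etv4 (-0.12), Cd44 (0.33), Abtb2 (0.028) and Caprin1 (0.44). It changed without _x_at and _s_at probe sets for Ets1 (0.024) and Fgfr1 (0.24), with weights for Etv4 (-0.058) and Cd44 (0.060), and with Eif2s3y for Etv4 (-0.012). With 1 array left out, ranges that crossed 0 were -0.12 to 0.11 for Etv4, -0.024 to 0.17 for Etv5, -0.11 to 0.0026 for Ets1, -0.22 to 0.12 for Cd44, -0.27 to 0.018 for Abtb2 and -0.023 to 0.042 for BC016548. As means over probe sets 525 genes in all were higher and 359 lower, against 255 and 284. No paired analysis was made, because the labels used here do not say which arrays share a litter, and the groups share no label numbers. Litter was therefore not modelled.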
